A study of Physcomitrium patens with 21 samples.

Results

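A set of 130 genes of the moss Physcomitrium patens had higher transcript levels in decapitated stems at 6 h and 12 h than at 0 h, and was back near the 0 h level at 24 h. They were selected on these measured values from 32926 gene models. Levels were read pairs of a gene per 1000000 counted pairs of the library (CPM), and differences were taken between group means on the log2(CPM + 1) scale. A member had a mean of at least 5 CPM at some time after decapitation, was at least 1 log2 unit above 0 h at both 6 h and 12 h, and lay less far above 0 h at 2 h than at 6 h. It also lay within 0.5 log2 units of 0 h at 24 h, and its auxin-treated and mock-treated means differed by less than 1 log2 unit.

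The study sequenced polyadenylated RNA of stems of leafy shoots (gametophores) of the wild type Gransden strain, in 7 groups of 3 biological replicates per the submitters' design text. Decapitated gametophores were collected 2 h, 6 h, 12 h and 24 h after the tip was cut, with decapitated gametophores at 0 h as their control. Gametophores given the auxin IAA (indole-3-acetic acid) at 10 µM for 30 min were set against gametophores given mock solvent for 30 min. All were grown at 23 °C under 16 h of light and 8 h of darkness. Each decapitation replicate pooled RNA from 5 to 10 gametophores of 4 week-old colonies. Neither the pooling nor the colony age is given for the auxin experiment, and its labels do not say whether those gametophores were cut. The 24 h group also carries a biotic stress tag in its treatment label, which the other groups do not.

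In mosses the gametophore is the leafy, haploid shoot. Its growing tip is a source of auxin, auxin holds back the start of side branches along the stem, and removing the tip releases them. A cut also wounds the stem, and many plant transcripts change with the time of day. The hours since the cut and the hour of the day cannot be told apart here, because uncut stems of the later hours were not analysed here. In bulk RNA, fewer cells of a type and less RNA per cell cannot be told apart either.

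The 21 libraries held 18995348 to 32039288 counted read pairs, and replicates of a group differed by more than sampling noise in every pair compared. The gene identifiers are not paired with names in the tables, and 0 of them matched the 27567 genes of the RefSeq table used here. The members are therefore given by identifier, no role is assigned to any of them, and the labelled tissue could not be checked against marker genes. Per the file headers, reads with equally good alignments at more than 1 place had been taken out, so members with near-identical copies elsewhere are undercounted. The library kit marks strand, and the sources used here do not say whether strand entered the counting, so reads of overlapping antisense genes may be mixed.

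Of the 32926 models, 16570 reached the minimum of 5 CPM, and the 130 members were 0.785% of these. The minimum left 361 genes at least 1 log2 unit higher at 6 h than at 0 h, and 202 of them were also at least 1 unit higher at 12 h. The 2 h condition left 198 of these, the auxin condition 158, and the 24 h condition 130. Of the 28 genes that failed on 24 h alone, 18 were still at least 0.5 units above 0 h and 10 were at least 0.5 units below it. Of the 26 genes that failed on auxin alone, all 26 were lower in IAA than in mock.

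Many members sat close to the limits of the selection. Pp3c14_13390V3.1 was just inside at 12 h, with a difference of 1.003, and Pp3c15_7710V3.1 just outside, with 0.995. At 24 h the nearest genes were Pp3c15_6350V3.1, inside at 0.497, and Pp3c24_9140V3.1, outside at -0.538. For auxin they were Pp3c27_7790V3.1, inside at -0.998, and Pp3c7_2490V3.1, outside at -1.072. Within 0.1 log2 units of the limit at 6 h and 12 h lay 32 members on the inner side and 48 other genes on the outer side.

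**Figure D1:**
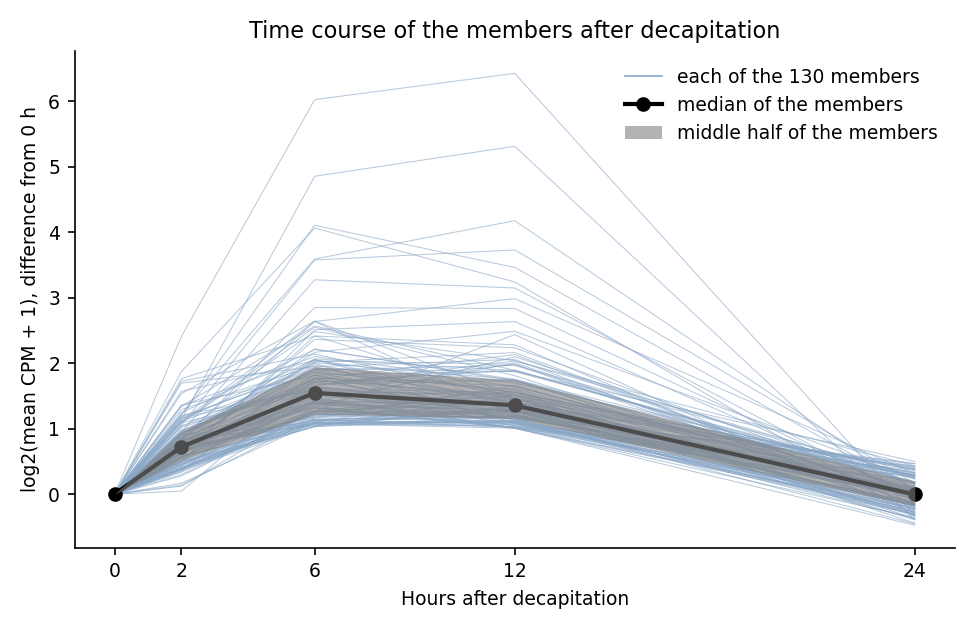
Difference from 0 h in log2(mean CPM + 1) for each of the 130 members (thin lines), their median (black) and the range between their quartiles (grey), against hours after decapitation. The median lay at 0.72 for 2 h, 1.55 for 6 h, 1.36 for 12 h and 0.0 for 24 h; the 6 h, 12 h and 24 h values follow the limits used to select the genes.

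Added together, the members took up about 3 times as large a part of the library at 6 h as at 0 h. Their summed level was 7212 ± 46.9 CPM at 0 h, 12137 ± 101 CPM at 2 h, 21655 ± 503 CPM at 6 h, 20436 ± 431 CPM at 12 h, and 7333 ± 177 CPM at 24 h (mean ± SD over 3 libraries). In percent of counted pairs these sums were 0.721, 1.21, 2.17, 2.04 and 0.733. The 3 libraries of each time lay together, and those of 0 h and 24 h were below all those of 2 h, 6 h and 12 h. In the auxin experiment the members summed to 7725 ± 404 CPM in IAA stems and 10583 ± 301 CPM in mock stems (SD, n = 3 each).

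**Figure D2:**
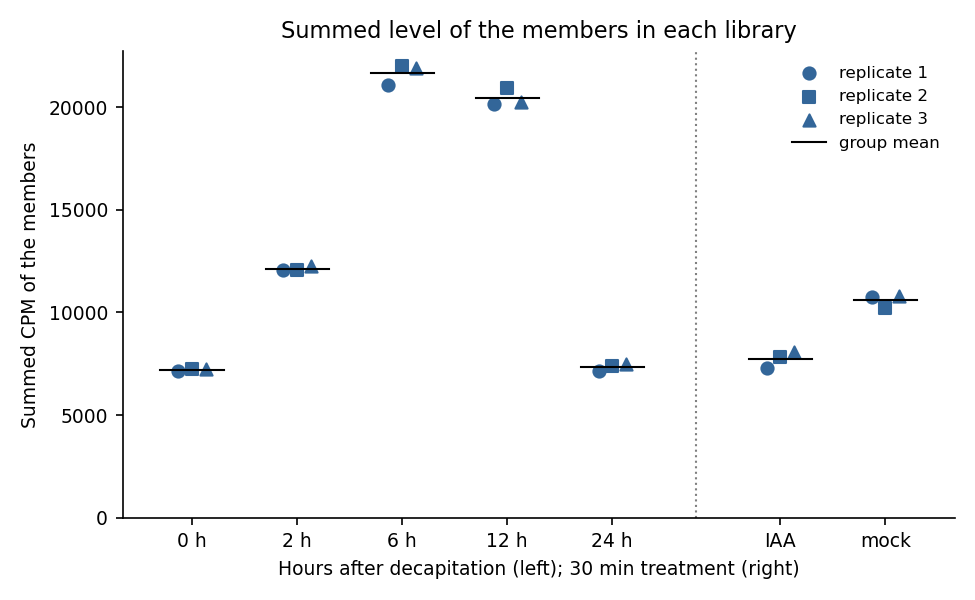
Summed CPM of the 130 members in each of the 21 libraries, by group, with the group mean as a bar. The sums at 6 h and 12 h lie between 20135 and 21997 CPM, those at 0 h and 24 h between 7135 and 7477 CPM, and the IAA libraries lie below the mock libraries.

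One gene, Pp3c7_6560V3.1, was the most abundant member in these sums. It had 1925, 1910 and 1931 CPM at 0 h, 2806, 2830 and 2881 CPM at 2 h, 5019, 5572 and 5789 CPM at 6 h, 5088, 5557 and 5134 CPM at 12 h, and 1780, 1889 and 2040 CPM at 24 h. The libraries of 0 h and 24 h overlapped, as did those of 6 h and 12 h, and the libraries of 2 h lay between these pairs. Without it the members summed to 5290 ± 47.3 CPM at 0 h, 9298 ± 64.9 CPM at 2 h, 16195 ± 201 CPM at 6 h, 15176 ± 173 CPM at 12 h, with 5430 ± 71.6 CPM at 24 h (mean ± SD over 3 libraries). The order of the times was thus the same without the most abundant member.

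Per kb of gene model, the members covered a wide range of levels. The higher of the 6 h and 12 h means was between 1.57 and 4490.2 CPM per kb, with a median of 26.8, and 24 members exceeded 100 CPM per kb while 12 stayed below 5. At 0 h their median level was 8.06 CPM per kb, against 12.04 CPM per kb for all genes past the minimum. The minimum could be met at any time, and members had to be higher at 6 h and 12 h than at 0 h. The selection thus favours a lower 0 h level, and these 2 medians are a description with no test. Pp3c7_6560V3.1, a model of 1216 bases, stood highest, and Pp3c1_32280V3.1, of 1254 bases, came next at 928 CPM per kb. Pp3c1_32280V3.1 had 425, 377 and 394 CPM at 0 h, 678, 687 and 735 CPM at 2 h, 1092, 1195 and 1204 CPM at 6 h, 848, 833 and 866 CPM at 12 h, and 466, 421 and 448 CPM at 24 h. Its libraries at 6 h all lay above those at 12 h, and those at 24 h overlapped with 0 h. The members' models had a median length of 2290 bases and ranged between 431 and 10788 bases, and all genes past the minimum had a median of 2351 bases.

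Most members lay 1 to 2 log2 units above 0 h at 6 h and at 12 h, and a few lay far higher. At 6 h the difference from 0 h ran from 1.03 to 6.02 log2 units with a median of 1.55, and at 12 h from 1.00 to 6.43 with a median of 1.36. Of the 130 members, 52 stayed below 1.5 log2 units at both times, 15 reached at least 2 at both, and 7 reached at least 3 at both. In all 130 members the 3 libraries of 6 h and the 3 of 12 h lay above the 3 of 0 h. In 129 all 6 libraries of 6 h and 12 h lay above all 6 of 0 h and 24 h, and in 116 they lay above the 2 h libraries as well. These counts follow the selection and are given as a description with no test.

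Pp3c11_5230V3.1 had the largest rise. It had 2.75, 3.21 and 2.63 CPM at 0 h, 19.0, 18.3 and 21.3 CPM at 2 h, 249, 257 and 245 CPM at 6 h, 337, 352 and 304 CPM at 12 h, and 2.0005, 2.26 and 1.998 CPM at 24 h. No library of one time overlapped with another time, and the 24 h libraries lay below those of 0 h. Its mean was 87.5 times the 0 h mean at 6 h and 116 times at 12 h. In edgeR's fit its log2 fold changes over 0 h were 2.71 ± 0.093 at 2 h, 6.37 ± 0.0883 at 6 h, 6.74 ± 0.0888 at 12 h, with -0.40 ± 0.126 at 24 h (± SE, n = 3 libraries each).

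Pp3c10_16800V3.1 was next. It had 1.04, 1.34 and 1.13 CPM at 0 h, 4.70, 3.53 and 3.07 CPM at 2 h, 66.3, 68.7 and 50.4 CPM at 6 h, 87.9, 86.8 and 80.9 CPM at 12 h, and 0.737, 0.577 and 0.655 CPM at 24 h. The libraries of 12 h were the highest and those of 24 h the lowest, with no overlap between any of the times. The mean was 52.8 times the 0 h mean at 6 h and 72.8 times at 12 h.

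**Figure D3:**
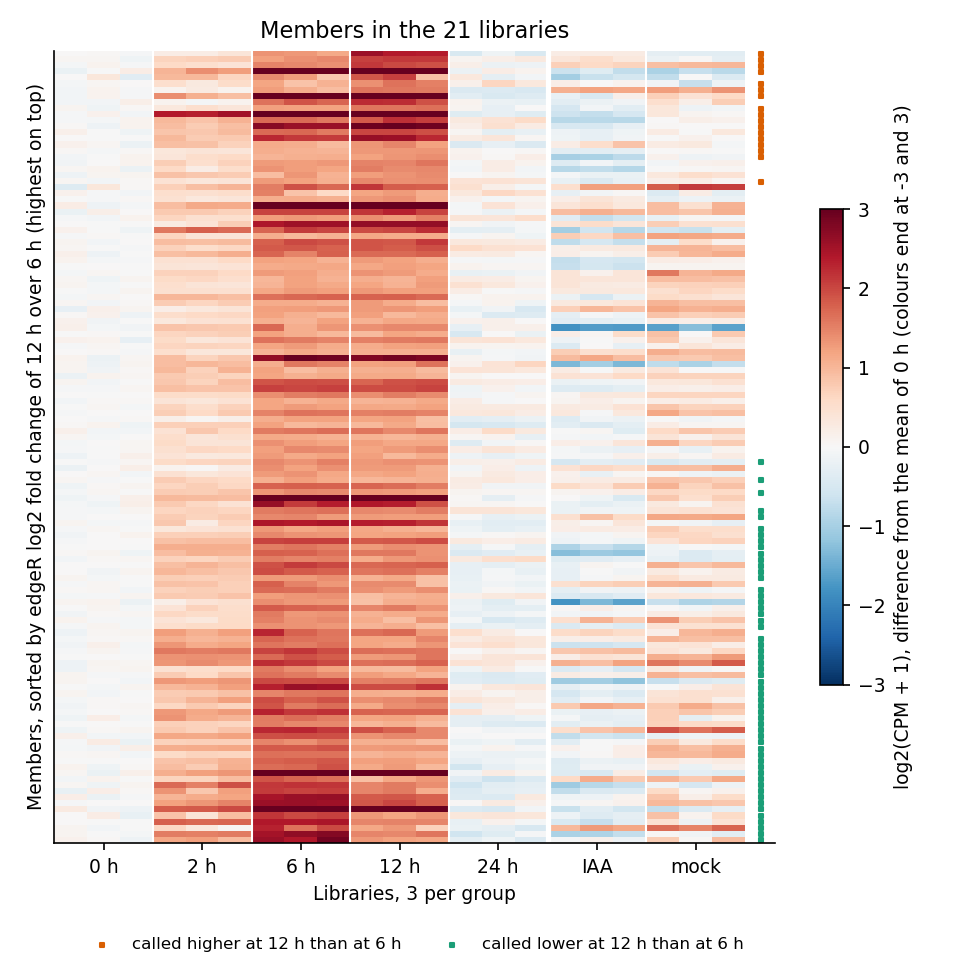
Each of the 130 members (rows) in each of the 21 libraries (columns, by group), as log2(CPM + 1) minus the member's own 0 h mean, sorted by the log2 fold change of 12 h over 6 h, with orange and green marks at the right for members that rose or fell between these times. The 6 h and 12 h columns are above 0 in all rows, the 24 h columns are close to 0, and the mock columns lie above 0 in more rows than the IAA columns.

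At 2 h the members were already above 0 h. The selection set no lower limit at this time, and the 2 h difference was positive in all 130 members, against 61.6% of the genes past the minimum. It ran from 0.05 to 2.41 log2 units with a median of 0.72, against 0.06 over the genes past the minimum. It was at least 1 log2 unit in 29 members (22.3%), against 0.881% of those genes. The 3 libraries of 2 h lay above the 3 of 0 h in 127 members (97.7%), against 32.7% of the genes past the minimum. The 2 h value shares its 0 h libraries with the 6 h and 12 h values that chose the members, so these counts are a description with no test.

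Relative to 6 h, the 2 h difference was a part that varied widely between members. The ratio of the 2 log2 differences had a median of 0.44, quartiles of 0.35 and 0.56, and extremes of 0.03 and 0.87. On log2(CPM + 1), Pp3c11_5230V3.1 had the highest 2 h difference, and Pp3c23_19470V3.1 the next, at 1.87 log2 units. In edgeR's fit, which does not shrink low levels in this way, Pp3c9_25240V3.1 was highest at 3.40 ± 0.256, and Pp3c26_3430V3.1, at 2.11 ± 0.278, was above Pp3c23_19470V3.1, at 1.96 ± 0.128 (SE, n = 3 each). Pp3c23_19470V3.1 had 8.10, 5.99 and 5.82 CPM at 0 h, 25.6, 26.3 and 28.8 CPM at 2 h, 125, 119 and 136 CPM at 6 h, 73.2, 75.6 and 64.7 CPM at 12 h, and 4.69, 4.41 and 6.12 CPM at 24 h. Its libraries of 24 h overlapped with those of 0 h, and no other times overlapped.

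The smallest 2 h differences on log2(CPM + 1) were those of Pp3c25_14840V3.1 and Pp3c20_1940V3.1. Pp3c25_14840V3.1 had 0.332, 0.335 and 0.611 CPM at 0 h, from 7, 7 and 13 read pairs, and 0.533, 0.353 and 0.527 CPM at 2 h. It then had 3.37, 4.26 and 3.80 CPM at 6 h, 5.75, 5.63 and 4.32 CPM at 12 h, and 0.526, 0.262 and 0.218 CPM at 24 h. The libraries of 0 h, 2 h and 24 h overlapped, and all those of 6 h and 12 h were higher. Pp3c20_1940V3.1 had 21.7, 24.9 and 28.1 CPM at 0 h, 26.8, 25.3 and 29.5 CPM at 2 h, 66.2, 58.9 and 65.2 CPM at 6 h, 61.3, 61.6 and 53.1 CPM at 12 h, and 23.3, 28.4 and 22.0 CPM at 24 h. Again 0 h, 2 h and 24 h overlapped. A 2 h level above 0 h was not detectable for either gene at the spread of these libraries.

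Between 6 h and 12 h the members divided. The selection put the same lower limit under both times and left their order free. It used the libraries of both times, however, and its limits dropped 122 genes that reached 1 log2 unit at 6 h but not at 12 h, and 66 that reached it at 12 h but not at 6 h, with 24 h within its limit. The calls below are therefore a description of the members and no independent test of them. By edgeR's quasi-likelihood test, with Benjamini-Hochberg adjusted p below 0.05 over all 20269 genes tested, 17 members rose at 12 h relative to 6 h (13.1%), 55 fell (42.3%) and 58 did not pass the test (44.6%). Over all genes tested, 16.8% were called higher and 21.2% lower, and over the 16570 genes past the minimum, 17.9% were called higher and 24.7% lower, shares that are not read against those of the members. The higher mean was at 6 h in 84 members and at 12 h in 46.

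Most of these differences were small. The median log2 fold change of 12 h over 6 h in edgeR's fit was -0.12 over the members and -0.03 over all genes tested, with a median SE of 0.079 over the members. The 17 that rose had a median of 0.37, and 2 of them changed by at least 1.5-fold. The 55 that fell had a median of -0.45, and 17 of them changed by at least 1.5-fold, 4 of these by at least 2-fold. The 3 libraries of 12 h and the 3 of 6 h did not overlap in 16 of the 17 that rose and in 52 of the 55 that fell. The calls came from the same libraries, so this lack of overlap adds no support to them. No share over all called genes was computed for it.

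The members that fell had higher median values at 2 h than those that rose. The 55 that fell had a median 2 h difference from 0 h of 0.90 log2 units, and 23 of them reached at least 1. The 17 that rose had a median of 0.70, and 3 reached at least 1. The 58 that did not pass the test had a median of 0.62, and 3 reached at least 1. No share over all genes was computed for these counts. The members that fell also had a larger median 6 h difference from 0 h, 1.77 log2 units against 1.34 in those that rose. As a ratio to the 6 h difference, the median at 2 h was 0.48 in those that fell and 0.35 in those that rose. The selection required the 2 h difference to lie below that at 6 h, but set no such condition at 12 h. For members high at 2 h this favours a fall from 6 h to 12 h. Since the 6 h libraries also enter the ratio, the selection and the 12 h comparison, no test of these differences was made.

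**Figure D4:**
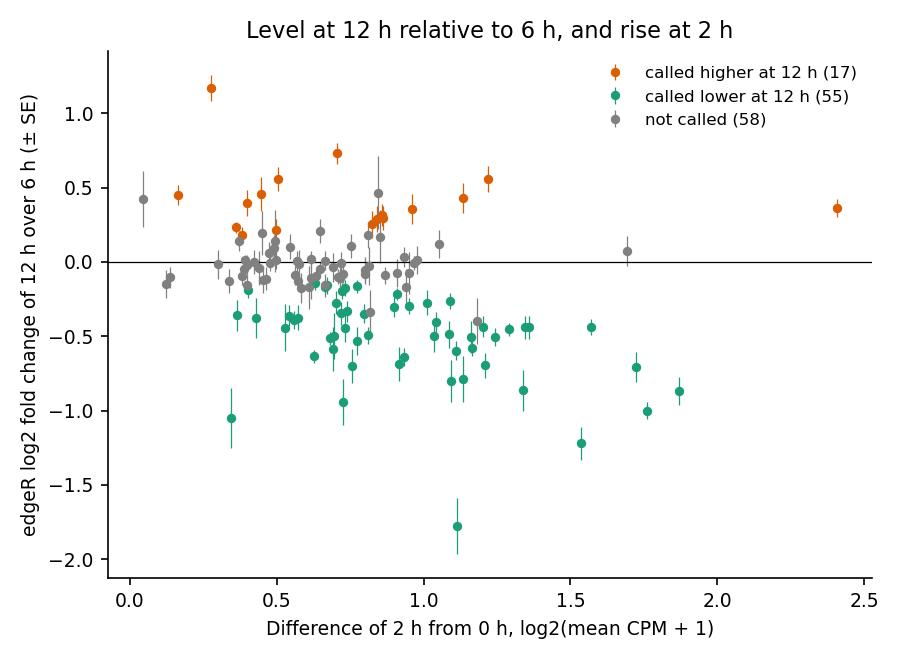
Log2 fold change of 12 h over 6 h in edgeR's fit against the 2 h difference from 0 h in log2(mean CPM + 1), with 1 point and its SE for each of the 130 members, coloured by whether it rose (17), fell (55) or did not pass the test (58). Of the 29 members with a 2 h difference of at least 1, 23 fell and 3 rose, with no share over all genes computed. The selection required the 2 h difference to lie below that at 6 h but not below that at 12 h, which favours a fall in these members.

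Pp3c16_23960V3.1 rose most after 6 h. It had 53.7, 47.4 and 46.5 CPM at 12 h and 22.7, 21.9 and 19.3 CPM at 6 h, against 8.29, 8.47 and 8.08 CPM at 0 h. All its 12 h libraries lay above those of 6 h, with a log2 fold change of 1.17 ± 0.0882 (SE, n = 3 each) in edgeR's fit. At 2 h it had 9.89, 9.85 and 11.02 CPM and at 24 h 5.74, 7.56 and 5.71 CPM, below 0 h. Pp3c1_36490V3.1 rose next most, with 60.1, 63.5 and 62.7 CPM at 12 h and 33.7, 36.9 and 38.9 CPM at 6 h, which did not overlap. Its log2 fold change was 0.73 ± 0.0696 (SE, n = 3 each). The 2 genes with the largest rise after decapitation rose here as well. For Pp3c11_5230V3.1 the log2 fold change of 12 h over 6 h was 0.37 ± 0.0609 (SE) and for Pp3c10_16800V3.1 it was 0.43 ± 0.101 (SE).

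Pp3c26_3430V3.1 fell most. It had 2.68, 2.44 and 2.31 CPM at 12 h and 7.90, 6.85 and 10.1 CPM at 6 h, with no overlap, and 0.616, 0.527 and 0.329 CPM at 0 h. Its log2 fold change of 12 h over 6 h was -1.78 ± 0.189 (SE, n = 3 each) in edgeR's fit. Pp3c6_11500V3.1 had 16.4, 16.1 and 18.4 CPM at 12 h and 35.0, 39.2 and 41.7 CPM at 6 h. Its 12 h libraries were about where its 2 h libraries had been, at 17.3, 17.1 and 17.8 CPM, and its log2 fold change of 12 h over 6 h was -1.22 ± 0.11 (SE, n = 3 each). Pp3c23_19470V3.1, described above for its 2 h level, fell by 0.87 ± 0.097 on the log2 scale (SE, n = 3 each). Of the 2 members with the highest level per kb, Pp3c1_32280V3.1 fell by 0.49 ± 0.057 on the log2 scale, and Pp3c7_6560V3.1 did not pass the test at -0.09 ± 0.0624 (SE, n = 3 each).

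At 24 h the members lay on both sides of the 0 h level within the limit set. Of the 130, 65 were above it and 65 below. Among all 16570 genes past the minimum, without the 24 h limit, 6446 were above and 10124 below. The 3 libraries of 24 h all lay above the 3 of 0 h in 38 members (29.2%), against 19.0% of the genes past the minimum, and all below in 29 (22.3%), against 32.2% of those genes. A return within 0.5 log2 units was therefore not the same as an overlap with 0 h, which the other 63 members showed. The 0 h and 24 h libraries took part in the selection, and the shares over the genes past the minimum carry no 24 h limit. The counts of members are thus a description with no test.

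The limit at 24 h was set on log2(CPM + 1), which shrinks the differences of genes with few reads. In edgeR's fit, 12 members differed by at least 0.5 log2 units between 24 h and 0 h, of which 8 were among the 27 members below 5 CPM at 0 h. One of them, Pp3c26_3430V3.1, had 0.211, 0.367 and 0.125 CPM at 24 h against 0.616, 0.527 and 0.329 CPM at 0 h, a log2 fold change of -1.10 ± 0.417 (SE) in that fit. These 24 h values came from 4, 7 and 4 read pairs.

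The selection limited the size of the auxin difference on log2(CPM + 1) and left its direction free. That scale shrinks low levels here as well: in edgeR's fit 12 members had a log2 fold change of -1 or less between IAA and mock, all with a mock mean of at most 6.09 CPM. Of the 130 members, 114 were lower in IAA than in mock (87.7%), against 65.8% of the genes past the minimum that met the same limit on size. The difference of IAA from mock had a median of -0.46 log2 units and ran from -0.998 to 0.54, against a median of -0.13 over those genes. It was -0.5 or less in 58 members (44.6%), against 9.52% of the genes past the minimum. The 3 IAA libraries all lay below the 3 mock libraries in 91 members (70.0%), against 41.5% of the genes past the minimum, and all above in 7 (5.38%), against 20.9%. As the IAA and mock libraries took part in the selection, no test of these values was made. The median also depended on scaling: with CPM scaled otherwise, as given below, it was -0.375 or -0.36 over the members.

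Pp3c27_7790V3.1 and Pp3c24_12090V3.1 were the members lowest in IAA relative to mock on log2(CPM + 1). In edgeR's fit, members with fewer reads were lower, and Pp3c9_25240V3.1 the lowest at -2.30 ± 0.333 (SE, n = 3 each). Pp3c27_7790V3.1 had 15.2, 18.9 and 17.8 CPM in IAA stems and 38.2, 32.4 and 35.9 CPM in mock stems, with no overlap, a log2 fold change of -0.94 ± 0.0977 (SE, n = 3 each) in edgeR's fit. After decapitation the same gene had 18.0, 18.0 and 17.6 CPM at 0 h, 34.6, 37.6 and 34.4 CPM at 2 h, 70.1, 80.4 and 74.1 CPM at 6 h, 60.8, 62.5 and 64.5 CPM at 12 h, and 14.8, 14.7 and 15.8 CPM at 24 h. Its mock libraries were thus near its 2 h level and its IAA libraries near its 0 h level. Pp3c24_12090V3.1 had 20.04, 25.7 and 28.3 CPM in IAA stems and 54.5, 44.3 and 50.7 CPM in mock stems, a log2 fold change of -0.91 ± 0.126 (SE, n = 3 each). It had 12.3, 14.1 and 14.6 CPM at 0 h, 68.8, 70.4 and 62.8 CPM at 6 h, 55.4, 48.6 and 39.1 CPM at 12 h, and 13.8, 12.7 and 12.7 CPM at 24 h, so that its mock libraries overlapped with those of 12 h.

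Among the 16 members higher in IAA, the largest differences were those of the 2 genes that rose most between 6 h and 12 h. Pp3c1_36490V3.1 had 18.0, 20.3 and 17.5 CPM in IAA stems and 12.04, 14.0 and 11.3 CPM in mock stems. Pp3c16_23960V3.1 had 9.78, 9.86 and 10.0 CPM in IAA stems and 6.69, 6.40 and 6.51 CPM in mock stems. For neither gene did the IAA and mock libraries overlap. Over the members that rose, did not pass the test and fell between 6 h and 12 h, the median difference of IAA from mock was -0.31, -0.42 and -0.60 log2 units. The 6 h, 12 h, IAA and mock libraries all took part in the selection, and no matching medians over all genes were computed. These medians are therefore a description with no test.

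**Figure D5:**
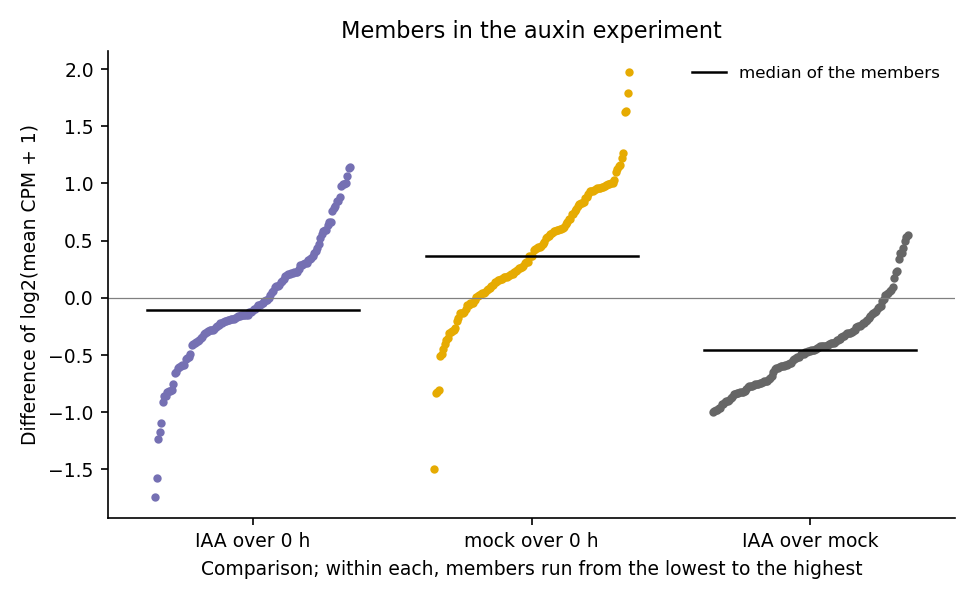
Differences in log2(mean CPM + 1) for the 130 members between IAA and 0 h, mock and 0 h, and IAA and mock, each member 1 point, with the median as a bar. The medians are -0.11 for IAA over 0 h, 0.37 for mock over 0 h and -0.46 for IAA over mock.

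Mock-treated stems were not at the 0 h level of the decapitation series for most members. The mock mean lay above the 0 h mean in 102 members and below it in 28. Over the 16570 genes past the minimum it lay above in 8419 and below in 8151. The median difference was 0.37 log2 units over the members, against 0.01 over those genes. The 3 mock libraries lay above the 3 of 0 h in 76 members (58.5%), against 33.0% of the genes past the minimum, and below in 18 (13.8%), against 33.1%. Between the 2 experiments, the experiment and the state of the stems cannot be told apart. The 0 h and mock libraries took part in the selection, which favours low 0 h levels, so these values are a description with no test.

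The 0 h, IAA and mock libraries all took part in the selection, so the values here are also a description with no test. The IAA libraries lay on both sides of 0 h. Their difference from 0 h had a median of -0.11 log2 units over the members, against -0.10 over the genes past the minimum. The 3 IAA libraries lay above the 3 of 0 h in 44 members (33.8%), against 24.4% of those genes, and below in 52 (40.0%), against 44.1%. The IAA mean was nearer than the mock mean to 0 h in 79 of the 130 members (60.8%), against 50.5% of the genes past the minimum.

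Single members departed widely from this. Pp3c9_25240V3.1 had the highest ratio of mock to 0 h, 6.68, with 1.30, 1.14 and 1.04 CPM in mock stems and 0.142, 0.192 and 0.188 CPM at 0 h, where 3, 4 and 4 read pairs were counted. Its IAA libraries had 0.142, 0.219 and 0.282 CPM, and it had 5.90, 6.11 and 5.85 CPM at 6 h. Pp3c2_15140V3.1 followed with 13.0, 16.2 and 15.6 CPM in mock stems and 2.04, 4.02 and 3.10 CPM at 0 h, and its mock libraries overlapped with those of 6 h, at 10.5, 14.0 and 12.1 CPM. At the other end, Pp3c22_9250V3.1 had 7.87, 10.4 and 8.11 CPM in mock stems and 29.9, 25.3 and 24.8 CPM at 0 h, a ratio of 0.33. Pp3c5_13590V3.1 had 1.46, 1.92 and 1.73 CPM in mock stems and 3.13, 3.69 and 4.51 CPM at 0 h, a ratio of 0.451, while it had 57.0, 57.0 and 55.6 CPM at 6 h and 85.4, 89.1 and 81.2 CPM at 12 h. Members selected by the same limits thus had mock levels on either side of 0 h.

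The members had a larger median spread between replicates than all genes past the minimum in each of the 7 groups, which was not tested. The 2 sets were not matched for level, so this is not read as a trait of the members. All members had their highest mean after decapitation at 6 h or 12 h, and 27 had a 0 h mean under 5 CPM. The median coefficient of variation of CPM over the 3 libraries of a group was 6.86% for 0 h, 5.83% for 2 h, 5.69% for 6 h, 6.54% for 12 h and 7.69% for 24 h over the members. Over the genes past the minimum it was 5.37%, 4.95%, 5.24%, 5.45% and 6.14% in the same order. In the auxin experiment the members' median was 9.06% in IAA stems and 9.95% in mock stems, against 5.92% and 7.34% over those genes.

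The members were spread over the genome as far as the identifiers show it. The identifiers carry a chromosome number, and each of the 27 numbers had at least 1 member. Chromosome 1 had 13 members, and chromosomes 12, 18 and 19 had 1 each. As a share of the genes past the minimum, members ranged between 0.172% on chromosome 12 and 1.79% on chromosome 27, where 4 of 224 genes were members. No annotation of the build was used here, so positions within a chromosome were read only from the order of the identifiers.

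In that order 9 pairs of members were within 3 identifiers of each other, and 3 pairs were directly consecutive. Pp3c8_16040V3.1 and Pp3c8_16060V3.1, named here after their values were seen, were the consecutive pair with the most alike differences from 0 h, 2.51 and 2.85 log2 units at 6 h and 2.63 and 2.83 at 12 h. Pp3c8_16040V3.1 had 20.9, 22.8 and 22.9 CPM at 6 h and 24.3, 24.2 and 24.3 CPM at 12 h, against 3.08, 3.06 and 3.05 CPM at 0 h. Pp3c8_16060V3.1 had 63.4, 79.3 and 75.5 CPM at 6 h and 70.4, 74.7 and 70.7 CPM at 12 h, against 10.0, 8.09 and 9.58 CPM at 0 h. For neither gene did a library of 6 h or 12 h overlap with 0 h. Whether such neighbours overlap or share reads was not tested.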

How the data were processed

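The authors deposited whole-number counts per gene model for each library. Per the file headers, read pairs were parsed, singletons were handled as unmapped, no insert size limit was set, reads with equally good alignments elsewhere were removed, and a pair counted when both mates lay on 1 model on opposite strands. The deposited count of read pairs was used. The aligner Bowtie2 appears, without a version, per the submitters' processing notes. The genome build and annotation are not given in the sources used here.

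CPM were computed from all counted pairs, without further scaling. Fold changes and tests came from edgeR 4.0.16 in R 4.3.3 with group as the sole term, fitted separately on the 15 libraries after decapitation (20269 genes left by filterByExpr) and the 6 auxin libraries (19989 genes), with TMM scaling and quasi-likelihood F tests. Calls used Benjamini-Hochberg adjusted p below 0.05. Each SE was the size of the log2 fold change over the root of its F statistic. All 130 members were tested. The p-values set a difference between group means against the spread between the replicate libraries of these samples. The edgeR fit of 12 h against 6 h was also run on simulated counts with known changes and the same spread for all genes. That simulation did not include the selection of the members, so it does not bear on calls among them.

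The members and what is described of them were chosen with earlier results of these data known. By rule, at most 2 identifiers were named for each feature described (largest rise, level, 2 h difference, 12 h change, auxin difference and ratio of mock to 0 h, and the genes at each limit). Outside the rule, and after their values were seen, 1 neighbouring pair was named, as were Pp3c9_25240V3.1 and Pp3c26_3430V3.1 at 2 h, 24 h or in IAA, where the fit orders low genes differently. Gene lists by function could not be filled, as no identifier matched the RefSeq genes of assembly ASM5946719v1. No sequence is shown, for the same reason. Alternatives were other scalings, pseudocounts, filters, DESeq2 1.42.0, other sets of libraries, a replicate block and each library left out in turn. Added after the data were seen were single reads, and all alternatives for the count of members lower in IAA than in mock and for the members' medians.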

Additional observations from a re-analysis of the deposited data

How the results depend on the processing

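Which genes were selected depended on scaling more than on any other choice tried. With CPM scaled by TMM 96 genes met the limits, 94 of them among the 130, and with edgeR's RLE scaling 98 did, 95 of them among the 130. Over all genes past the minimum, the median shift of the 12 h difference was -0.10 (TMM) and -0.11 (RLE). For the difference of IAA from mock it was 0.09 (TMM) and 0.106 (RLE). The members' median difference of IAA from mock was -0.375 (TMM) and -0.36 (RLE), against -0.458 without scaling. A pseudocount of 0.5 gave 124 genes, no minimum 133, a minimum of 10 CPM 118 and single reads 128. Leaving out 1 library at a time gave 124 to 135 genes, and 102 of the 130 were selected whichever library was left out. Of the 130, 72 were called between 12 h and 6 h, against 71 under RLE scaling, 71 without a filter and 68 by DESeq2. With the 6 libraries of those times alone 65 were called, with all 21 libraries 66, and with 1 library left out 63 to 69. Same-numbered libraries of 6 h and 12 h did not deviate together (correlation of -0.22 to 0.04), and over all pairs of times it ran from -0.33 to 0.37, with all 3 over 0.1 for 24 h and 12 h alone (0.11 to 0.23). The numbers were not taken to pair the 12 h and 6 h libraries, and with a replicate block 73 were called, 17 higher and 56 lower. Members lower in IAA than in mock numbered 109 to 117 over the scalings, pseudocount and libraries left out, all chosen after the data were seen. Over such alternatives the members' median difference from 0 h ran from 0.65 to 0.751 at 2 h and from 1.456 to 1.612 at 6 h. At 12 h it ran from 1.249 to 1.417, and at 24 h from -0.021 to 0.052. The 4 genes named for the largest change between 6 h and 12 h kept their call and direction under all 13 alternatives. Members below 1 CPM at 0 h rested on few read pairs, which limits the precision of their fold changes.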
